A study of Mus musculus with 2 samples.

Results

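The proteasome genes compared here are the genes whose platform symbol begins with Psma, Psmb, Psmc, Psmd, Psme, Psmf or Psmg and a number. They were chosen by that name alone, among probe sets with a single gene symbol, and their measured values played no part. The rule found 50 of the 19505 genes named on the array, each with 1 probe set. The standard subunit Psmb5 has no named probe set here and so no value.

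Both RNA samples came from cardiac macrophages of C57BL/6 males, 10 weeks old, that had undergone ischemia-reperfusion (IR), in which blood flow through a coronary artery is stopped and then restored. Cells inside a CD45+CD11b+ gate were sorted into MHCII+ macrophages and MerTK- macrophages. Each sample pools the cells of several hearts. MHCII+ macrophages carry MHC class II, which presents peptides to T cells, and the study counts them among the MerTK+ resident populations. MerTK is a receptor for dying cells, and the MerTK- population was sorted for its absence. All mice were wild type and all had undergone IR, so no sham heart enters the comparison. It is not stated that the MHCII+ gate also used MerTK, and the time from IR to sorting is unknown from the sources used. The question is which proteasome genes differ between a population counted as MerTK+ and MerTK- cells of the injured heart.

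Each population had 1 array. There is no spread between replicates, no difference can be tested, and every value below is a description of these 2 arrays, whose number limits the precision. Values are log2 intensities from the Robust Multiarray Average (RMA) as deposited. Differences are MHCII+ minus MerTK-, so 1 is 2-fold higher in MHCII+ macrophages. Levels of different genes are not set against each other, since each probe set has its own brightness. Genes of smell and taste receptors gave each array a floor, the level that 95% of their 1450 probe sets do not exceed. This floor was 4.23 in MHCII+ and 4.67 in MerTK- macrophages. Genes are called above the floor if the brighter of their values passes it. This held for 10518 genes and for 47 of the 50 proteasome genes.

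The proteasome is the protease that breaks down ubiquitin-tagged proteins in the cytosol and nucleus. Its barrel, the 20S core, has outer rings of alpha subunits (Psma genes) that gate the entrance and inner rings of beta subunits (Psmb genes), some of which cut protein. A 19S cap of ATPases (Psmc genes) and non-ATPases (Psmd genes) binds tagged proteins, removes the ubiquitin and threads the chain into the barrel. Under interferon-gamma the catalytic subunits Psmb5, Psmb6 and Psmb7 are replaced in newly built cores by Psmb8, Psmb9 and Psmb10. The resulting immunoproteasome makes peptides suited to MHC class I, and macrophages and other leukocytes hold much of it without added interferon. Activators (Psme genes) open the barrel in place of the cap, and chaperones (Psmg genes and some Psmd genes) assemble the particle.

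The 200 bases before the start of 4 genes are shown, because their values set the pattern of the comparison. Psmb9 and Psmb8 are inducible subunits whose differences lay near 0, while Psme3, a nuclear activator, and Psmd14, the cap's ubiquitin-removing enzyme, were more than 2-fold higher in MHCII+ macrophages. Sequences are from RefSeq, assembly GRCm38.p6, written 5′ to 3′ on the strand of the gene. Capitals mark matches on either strand to the motifs searched. The Psmb9 window is chr17:34187331-34187530 on the minus strand, and the Psmb8 window is chr17:34197995-34198194 on the plus strand. The Psme3 window is chr11:101316013-101316212 and the Psmd14 window chr2:61711494-61711693, both on the plus strand.
Psmb9: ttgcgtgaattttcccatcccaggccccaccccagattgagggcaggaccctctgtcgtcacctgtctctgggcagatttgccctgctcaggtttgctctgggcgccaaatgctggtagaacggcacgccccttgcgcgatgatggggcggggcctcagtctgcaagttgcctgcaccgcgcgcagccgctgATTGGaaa
Psmb8: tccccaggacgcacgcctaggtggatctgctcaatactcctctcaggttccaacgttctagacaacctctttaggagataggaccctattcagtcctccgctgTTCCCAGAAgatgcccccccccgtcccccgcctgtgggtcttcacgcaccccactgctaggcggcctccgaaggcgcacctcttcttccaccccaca
Psme3: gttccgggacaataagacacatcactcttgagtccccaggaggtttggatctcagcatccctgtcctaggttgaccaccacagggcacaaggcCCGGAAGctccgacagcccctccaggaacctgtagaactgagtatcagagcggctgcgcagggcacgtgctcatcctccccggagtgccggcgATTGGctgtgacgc
Psmd14: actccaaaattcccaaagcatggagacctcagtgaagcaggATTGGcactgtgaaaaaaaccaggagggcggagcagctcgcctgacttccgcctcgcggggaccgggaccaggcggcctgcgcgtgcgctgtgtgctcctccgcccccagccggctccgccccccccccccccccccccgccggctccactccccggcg

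In Psmb9 the capitals are a CCAAT box read on the other strand, from -8 to -4 relative to the start. In Psmb8 they are a gamma-activated sequence, a site of the interferon-gamma response, from -97 to -89. Psme3 held an ETS motif from -107 to -101 and a CCAAT box from -14 to -10, and Psmd14 a CCAAT box from -159 to -155. The CCAAT boxes of Psme3 and Psmd14 are likewise read on the other strand. The same window was searched in the 42 proteasome genes with a promoter entry and in all 27025 genes with one. The ETS motif CCGGAAG was in 13 proteasome promoters (31.0%), against 7.15% of all promoters. The interferon-stimulated response element (GAAA, then NN, then GAAA) was in 3 (7.14%, against 2.65%), namely Psmb3, Psmd4 and Psmd9, and in none of Psmb8, Psmb9 and Psmb10. The gamma-activated sequence TTCNNNGAA was in Psmb8 alone (2.38%, against 6.38%). The antioxidant response element TGACNNNGC, a site of the stress factors NFE2L1 and NFE2L2, was in Psmb6 and Psmd9 (4.76%, against 9.77%). CCAAT was in 16 (38.1%, against 32.7%), and an NF-kappaB motif in 6 (14.3%, against 6.92%). Motifs on either strand counted, overlaps included. A match is a string of letters and not a shown binding site, and a missing match says only that these letters are not in this window.

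Proteasome genes were mostly higher in MHCII+ macrophages. Of the 47 above the floor, 41 (87.2%) were higher in MHCII+ macrophages, against a background of 58.4% over all genes that passed it. In MHCII+ macrophages 12 of the 47 (25.5%) were at least 2-fold higher, against a background of 13.4%, and 0 were at least 2-fold lower, against a background of 6.88%. In pooled RNA, fewer cells of a type and less RNA per cell cannot be told apart. The median difference was 0.69, a 1.61-fold higher value in MHCII+ macrophages, and over all genes above the floor it was 0.15. The 12 genes were Psma4, Psmb6, Psmb7, Psmc2, Psmd1, Psmd2, Psmd5, Psmd7, Psmd10, Psmd14, Psme3 and Psmg2. They come from both rings of the core, the cap, its chaperones, the activators and the assembly factors, and include no immunoproteasome subunit. Just inside the 2-fold line were Psma4 at 1.02, Psmd2 at 1.09 and Psmd7 at 1.10. Just outside it were Psma1 and Psmc3, both at 1.00 after rounding, then Psmg4 at 0.92 and Psmg1 at 0.91.

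The counts were lower among brighter genes. Among genes with a mean of at least 10 over both arrays, 36 were proteasome genes, of which 7 (19.4%) passed 2-fold on the MHCII+ side, against a background of 11.4%. In that class 0 proteasome genes were at least 2-fold lower (background 9.05%) and 30 (83.3%) were higher (background 52.9%). Their median difference was 0.46, against 0.06 for all genes of the class.

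How far the whole set lies above 0 depends on the scale, which the deposited values do not settle. When arrays were centred on the median of all genes above the floor, a shift of 0.15, 36 of 47 proteasome genes were higher in MHCII+ macrophages, against a background of 50% of all genes above the floor. Centred on 20 housekeeping genes, a shift of 0.47, 28 were higher (background 32.7%), 4 were at least 2-fold higher (background 4.98%) and 1, Psme2b, was at least 2-fold lower (background 18.4%). Centred on the 4 hybridization controls, which are added RNAs and were 0.93 lower on the MHCII+ array, all 47 were higher, as were 92.2% of all genes above the floor. Another 4 controls, polyadenylated spike RNAs, went the other way, with a median 0.15 higher on the MHCII+ array. That is near the shift of all genes above the floor, and no centring on these spikes was run. The direction of 28 genes was the same under the deposited values and all 3 centrings, and that of 19 was not. Those 19 are Psma2, Psma3, Psma5, Psma6, Psma7, Psmb1, Psmb2, Psmb3, Psmb8, Psmb9, Psmb10, Psmc6, Psmd8, Psmd9, Psme1, Psme2, Psme2b, Psme4 and Psme3ip1. For these 19 genes, "higher" and "lower" in what follows hold for the deposited scale only. Among them, Psma7, Psmb3, Psmb9, Psmb10, Psme2b and Psme4 changed direction with the hybridization controls alone. Differences between 2 genes' differences do not move with centring.

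**Figure D1:**
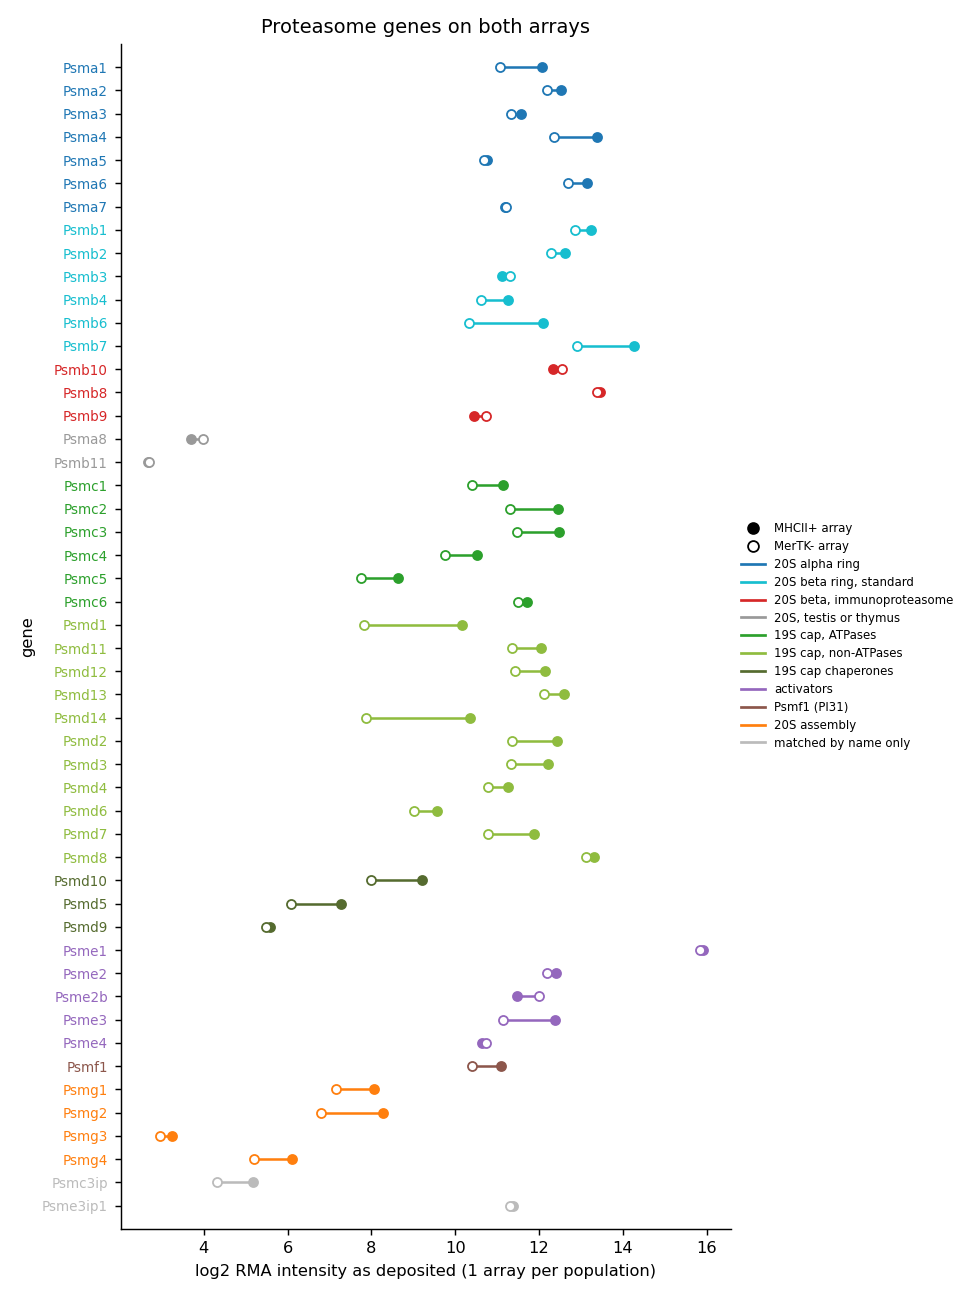
Deposited log2 RMA intensity (horizontal axis) of the 50 proteasome genes, grouped by role in colour, with 1 array per population: filled points are the MHCII+ array and open points the MerTK- array. The widest gaps are those of Psmd14, Psmd1 and Psmb6, while both points nearly coincide for Psmb8 and Psme1; levels of different genes are not comparable.

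Most genes of the alpha ring differed little. Of its 7 genes 6 were higher in MHCII+ macrophages (85.7%, against 58.4% of all genes above the floor). At least 2-fold higher was 1 (14.3%, against 13.4%), which is near the background. The median difference was 0.32, which became -0.15 when centred on housekeeping genes. Psma4 had 13.39 in MHCII+ macrophages and 12.37 in MerTK- macrophages, a difference of 1.02. Psma1 had 12.06 in MHCII+ macrophages and 11.06 in MerTK- macrophages, a difference of 1.00 that lay just under 2-fold. These 2 genes stood apart from the other 5, all within 0.45. Psma6 had 13.15 in MHCII+ and 12.70 in MerTK- macrophages, a difference of 0.45. Values of Psma2 were 12.52 in MHCII+ and 12.20 in MerTK- macrophages (0.32). Psma3 was close to it, with 11.58 in MHCII+ and 11.32 in MerTK- macrophages (0.26). The remaining pair was nearly level between the populations. Psma5 had 10.76 in MHCII+ and 10.68 in MerTK- macrophages (0.08). Psma7, with 11.19 in MHCII+ and 11.22 in MerTK- macrophages (-0.03), was the 1 alpha gene with a lower value.

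The standard beta ring spread more widely. Of its 6 measured genes 5 were higher in MHCII+ macrophages (83.3%, background 58.4%), and the median was 0.51. At least 2-fold higher were 2 (33.3%, background 13.4%). The 2 were both catalytic. Psmb6, the subunit with caspase-like activity, had 12.09 in MHCII+ macrophages and 10.32 in MerTK- macrophages, 3.40-fold apart. Psmb7, the subunit with trypsin-like activity, had 14.26 in MHCII+ macrophages and 12.92 in MerTK- macrophages, 2.53-fold apart. The non-catalytic beta subunits all lay within 2-fold. Psmb4 had 11.26 in MHCII+ and 10.61 in MerTK- macrophages (0.65). Psmb1 had 13.24 in MHCII+ and 12.87 in MerTK- macrophages (0.37). Psmb2 had 12.62 in MHCII+ and 12.28 in MerTK- macrophages (0.33). These 3 help to hold the ring together. Psmb3 was the 1 standard beta gene with a lower value, 11.12 in MHCII+ and 11.31 in MerTK- macrophages (-0.18). Over the 13 measured genes of the standard core, 11 were higher in MHCII+ macrophages (84.6%, background 58.4%), 3 of them at least 2-fold (23.1%, background 13.4%). The median of the core was 0.37, which became -0.11 when centred on housekeeping genes.

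The immunoproteasome subunits did not share the higher values of the standard catalytic subunits. Psmb8, which takes the place of Psmb5, had 13.46 in MHCII+ macrophages and 13.38 in MerTK- macrophages, a difference of 0.08. Psmb9, which takes the place of Psmb6, had 10.44 in MHCII+ macrophages and 10.73 in MerTK- macrophages, a difference of -0.29. Psmb10, which takes the place of Psmb7, had 12.33 in MHCII+ macrophages and 12.54 in MerTK- macrophages, a difference of -0.21. All 3 lay well above the floor on both arrays, and none was 2-fold apart. Their median was -0.21 on the deposited scale. It was -0.69 when centred on housekeeping genes and 0.72 when centred on hybridization controls, so whether their absolute level differs is not settled by these arrays.

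In both pairs with a value, the ratio of the inducible to the standard subunit was lower in MHCII+ macrophages. The difference of Psmb9 minus that of Psmb6 was -2.05, which makes the ratio of Psmb9 to Psmb6 4.15-fold lower in MHCII+ macrophages than in MerTK- macrophages. For Psmb10 and Psmb7 it was -1.55, a 2.94-fold lower ratio in MHCII+ macrophages. These values are free of the centring, and quantile normalization gave -2.09 and -1.57. If the deposited scale were stretched by a factor of 2, they would be -1.03 and -0.78, the second of which is under 2-fold. On the deposited scale most of the gap in both pairs came from the standard subunit, which was higher in MHCII+ macrophages, and less from the inducible one. Unlike the gap, this split moves with the centring. Centred on housekeeping genes, Psmb7 was at 0.87 and Psmb10 at -0.69. Centred on hybridization controls, Psmb9 (0.65) and Psmb10 (0.72) were themselves higher in MHCII+ macrophages. Psmb8 could not be set against Psmb5. Set against the median of the 6 measured standard beta genes, a comparison chosen after the data were seen, Psmb8 was lower by 0.43 on the log2 scale, Psmb9 by 0.79 and Psmb10 by 0.72. Because the arrays measure RNA, the ratios say nothing of the makeup of assembled particles.

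**Figure D2:**
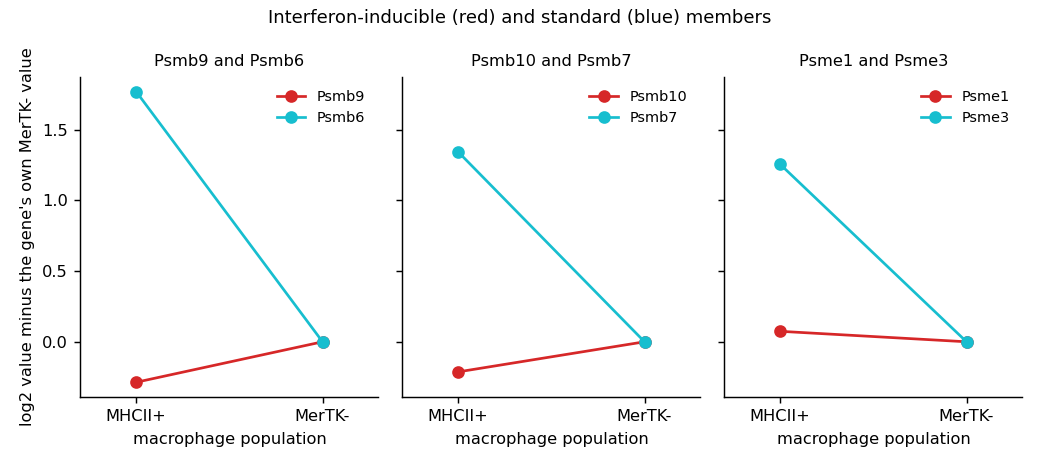
Log2 value of each gene minus its own value on the MerTK- array (vertical axis) for the MHCII+ array (left point) and the MerTK- array (right point, 0 by construction), 1 array each. Psmb6, Psmb7 and Psme3 (blue) stand 1.77, 1.34 and 1.25 above 0 in MHCII+ macrophages, while Psmb9, Psmb10 and Psme1 (red) lie between -0.29 and 0.07. Unlike the Psmb pairs, that of Psme1 and Psme3 was not planned.

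The genes of the 19S cap all lay on the same side of 0. All 17 of its ATPases and non-ATPases were higher in MHCII+ macrophages, 5 of them at least 2-fold (29.4%), with a median of 0.78. The backgrounds are the 58.4% and 13.4% given above. When centred on housekeeping genes 15 of 17 were still higher, 2 of them at least 2-fold, against backgrounds of 32.7% and 4.98%, and the median was 0.31.

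The 6 ATPases form the ring that unfolds a substrate and pushes it into the core. All 6 were higher in MHCII+ macrophages (background 58.4%), 1 of them at least 2-fold (16.7%, background 13.4%), with a median of 0.83. Psmc2 had 12.45 in MHCII+ and 11.31 in MerTK- macrophages, 2.20-fold apart. Psmc3 had 12.48 in MHCII+ and 11.48 in MerTK- macrophages, at 1.00 just below the 2-fold line. The next 3 ATPases lay close together. Psmc5 had 8.63 in MHCII+ and 7.75 in MerTK- macrophages (0.87). Psmc4 had 10.53 in MHCII+ and 9.75 in MerTK- macrophages (0.78). Psmc1 had 11.14 in MHCII+ and 10.40 in MerTK- macrophages (0.74). Psmc6 stood apart from the other 5 with the smallest difference of the ring. Its values were 11.71 in MHCII+ and 11.51 in MerTK- macrophages (0.20).

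Among the 11 non-ATPases the 2 largest differences of the whole set were found. Psmd14, the metalloprotease that cuts ubiquitin chains from a substrate as it enters, had 10.35 in MHCII+ macrophages and 7.87 in MerTK- macrophages, 5.58-fold apart. Psmd1, a large scaffold subunit of the cap's base, had 10.16 in MHCII+ macrophages and 7.83 in MerTK- macrophages, 5.01-fold apart. Both kept more than a 2-fold difference when centred on housekeeping genes. Psmd7, the lid subunit that pairs with Psmd14, had 11.89 in MHCII+ and 10.79 in MerTK- macrophages (1.10). Psmd2, the other large scaffold, which docks ubiquitin shuttle proteins, had 12.44 in MHCII+ and 11.35 in MerTK- macrophages (1.09). The other 7 were within 2-fold, and 6 of them are structural subunits of the lid. Psmd3 had 12.22 in MHCII+ and 11.34 in MerTK- macrophages (0.88). Psmd12 had 12.14 in MHCII+ and 11.42 in MerTK- macrophages (0.72). Psmd11 was alike, with 12.05 in MHCII+ and 11.35 in MerTK- macrophages (0.70). The other lid subunits were closer to level. Psmd6 had 9.56 in MHCII+ and 9.01 in MerTK- macrophages (0.56). Psmd13 had 12.61 in MHCII+ and 12.13 in MerTK- macrophages (0.48). Psmd8 had 13.30 in MHCII+ and 13.11 in MerTK- macrophages (0.19), the smallest difference of the cap. Psmd4 is no lid subunit but a receptor for ubiquitin chains. Its values were 11.25 in MHCII+ and 10.78 in MerTK- macrophages (0.47).

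**Figure D3:**
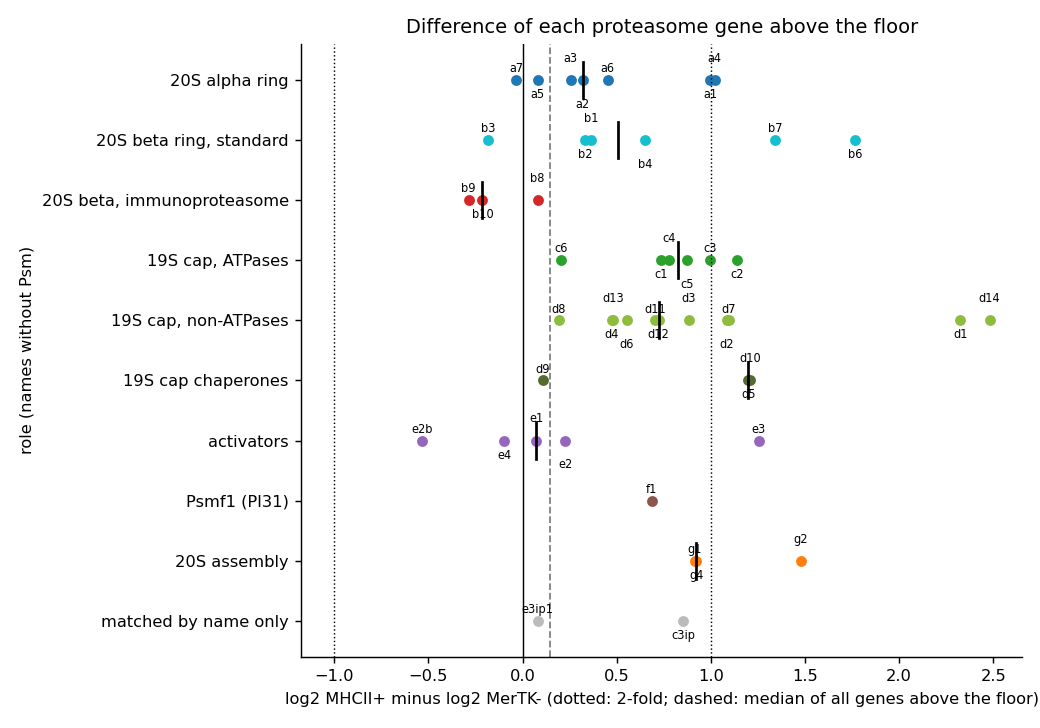
Difference of log2 values, MHCII+ minus MerTK- (horizontal axis), for the 47 proteasome genes above the floor, 1 point per gene and 1 row per role, with gene names shortened by Psm. Black ticks are the medians of roles with at least 3 genes, dotted lines mark 2-fold and the dashed line is the median of all genes above the floor (0.15); all cap genes lie right of 0, and the 3 immunoproteasome subunits lie at or left of 0.08.

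Assembly factors were also higher in MHCII+ macrophages. Of the 3 chaperones of the cap's base, Psmd10 (gankyrin) had 9.21 in MHCII+ and 8.00 in MerTK- macrophages (1.21). Psmd5 had 7.27 in MHCII+ and 6.07 in MerTK- macrophages (1.20). The third, Psmd9, had 5.58 in MHCII+ and 5.48 in MerTK- macrophages (0.11). Psmg1 to Psmg4 encode the chaperones that pair up to build the alpha ring. Psmg2 had 8.27 in MHCII+ and 6.79 in MerTK- macrophages, 2.79-fold apart. Psmg1, the partner of Psmg2, had 8.06 in MHCII+ and 7.15 in MerTK- macrophages (0.91). These form a pair in the cell, as do Psmg3 and Psmg4. Psmg4 had 6.11 in MHCII+ and 5.19 in MerTK- macrophages (0.92). Its partner Psmg3 lay under the floor at 3.24 in MHCII+ and 2.95 in MerTK- macrophages. Of the 6 assembly factors above the floor, Psmd9 alone changed direction under a centring.

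The activators differed among themselves, with a median of 0.07 that became -0.40 when centred on housekeeping genes. Psme1 and Psme2, whose products form the interferon-inducible PA28 ring, were nearly level. Psme1 had 15.91 in MHCII+ and 15.84 in MerTK- macrophages (0.07). Psme2 had 12.41 in MHCII+ and 12.18 in MerTK- macrophages (0.23). Psme3, whose product forms a nuclear ring of its own and is not induced by interferon, had 12.39 in MHCII+ macrophages and 11.14 in MerTK- macrophages, 2.38-fold apart. The ratio of Psme1 to Psme3 was thus 2.27-fold lower in MHCII+ than in MerTK- macrophages, and that of Psme2 to Psme3 2.04-fold lower. These comparisons were not planned. If the deposited scale were stretched by a factor of 2, both would be under 2-fold. Against the next 2 activators, Psme4 and Psme2b, the ratios of Psme1 and Psme2 were higher in MHCII+ macrophages. Psme4, the large nuclear activator PA200, had 10.65 in MHCII+ and 10.74 in MerTK- macrophages (-0.10). Psme2b, a near copy of Psme2, had 11.47 in MHCII+ and 12.00 in MerTK- macrophages (-0.53), the lowest difference of the set. Its probes may take up RNA of Psme2, so this value is uncertain. Psmf1, known as PI31 and first described as an inhibitor of the core, had 11.10 in MHCII+ and 10.41 in MerTK- macrophages (0.69).

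The 5 interferon-inducible genes Psmb8, Psmb9, Psmb10, Psme1 and Psme2 together ran from -0.29 to 0.23, with a median of 0.07, and none was 2-fold apart. Counted from the lowest of the 47 differences, Psmb9 was at place 2, Psmb10 at 3, Psme1 at 7, Psmb8 at 8 and Psme2 at 14. The other 42 genes above the floor had a median of 0.73. Of them 38 (90.5%, background 58.4%) were higher in MHCII+ macrophages, 12 (28.6%, background 13.4%) by 2-fold or more. The grouping of the 5 was made after their values were seen, so the contrast is a description. When arrays were centred on the median of all genes above the floor, the median of the 5 was -0.07 and that of the other 42 was 0.58.

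Subunits known from special tissues lay under the floor. Psma8, a testis alpha subunit, had 3.70 in MHCII+ and 3.98 in MerTK- macrophages. Psmb11, the beta subunit of the thymic cortex, had 2.68 in MHCII+ and 2.70 in MerTK- macrophages. Neither is given a fold. A further 2 genes matched by name only. Psmc3ip, a recombination factor of meiosis, had 5.17 in MHCII+ and 4.32 in MerTK- macrophages, the MerTK- value being under its floor. Psme3ip1, which encodes a partner of Psme3 in the nucleus, had 11.38 in MHCII+ and 11.30 in MerTK- macrophages (0.08). Without these 4 genes, 12 of 45 genes (26.7%, background 13.4%) passed 2-fold on the MHCII+ side and the median stayed at 0.69.

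Psmb8 and Psmb9 lie on mouse chromosome 17 inside the MHC class II region, next to the peptide transporter genes Tap1 and Tap2. The class II genes on both sides were higher in MHCII+ macrophages, a population that was sorted on MHC class II. In chromosome order H2-DMa was 2.11 higher, H2-DMb2 5.38 and H2-DMb1 3.77. Then came Psmb9 at -0.29, Tap1 at 0.41, Psmb8 at 0.08 and Tap2 at 0.58. Tap1 had 12.28 in MHCII+ and 11.86 in MerTK- macrophages. Tap2 had 7.00 in MHCII+ and 6.42 in MerTK- macrophages. On the far side H2-Ob was at 1.03, H2-Ab1 at 6.81, H2-Aa at 8.33 and H2-Eb1 at 7.19. Thus 7 of 7 class II genes and 0 of the 4 genes between them passed 2-fold on the MHCII+ side, on the deposited scale (background 13.4%). The MerTK- value of H2-Ob was under its floor, and taken against that floor the MHCII+ value was at least 1.99-fold higher.

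**Figure D4:**
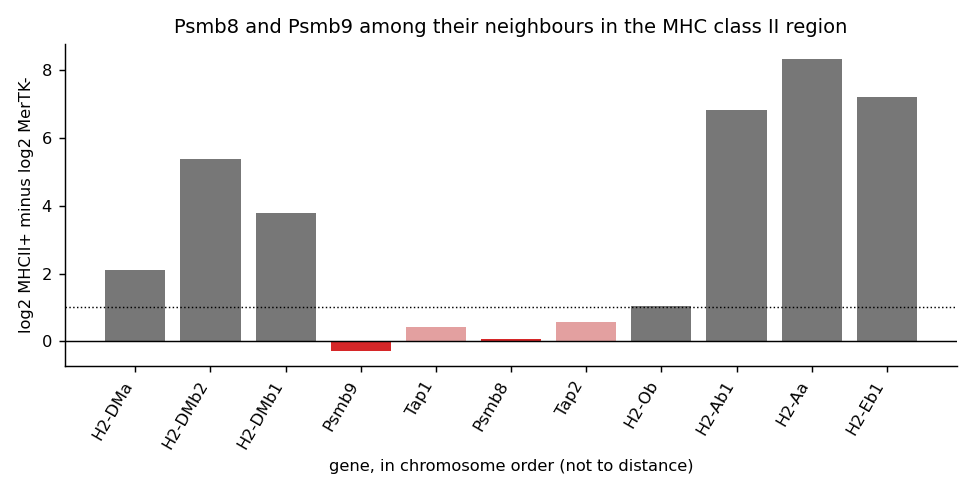
Difference of log2 values, MHCII+ minus MerTK- (vertical axis), for 11 genes of the MHC class II region in chromosome order, evenly spaced and not to distance; grey bars are class II genes, red bars Psmb9 and Psmb8, pale red bars Tap1 and Tap2, and the dotted line marks 2-fold. The 4 middle genes lie between -0.29 and 0.58, the class II genes between 1.03 and 8.33.

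Other large complexes of the cell also had mostly higher values in MHCII+ macrophages. Over all genes above the floor 58.4% were higher and 13.4% at least 2-fold higher. The 2-fold shares of COP9 and eIF3 given below were near that background. The COP9 signalosome, whose subunits are related to those of the cap's lid, had 9 of 9 genes higher in MHCII+ macrophages. Of these 1 (11.1%) was at least 2-fold higher, and the complex had a median of 0.82. Its largest differences were those of Cops6 (1.85), Cops7a (0.92) and Gps1 (0.89). The translation factor eIF3, also built from related subunits, had 11 of 12 genes (91.7%) higher, 2 (16.7%) at least 2-fold. Its median was 0.53, and Eif3b (1.65), Eif3d (1.45) and Eif3a (0.85) led it. The chaperonin CCT, which folds actin and tubulin, had 7 of 7 genes higher, 5 (71.4%) at least 2-fold, with a median of 1.07. Cct3 (1.75) and Cct2 (1.39) led it among genes measured above the floor on both arrays. The deposited difference of Cct7 was 1.46, but its MerTK- value was under the floor, against which it was 1.04-fold apart. With that value set to the floor, 4 CCT genes were at least 2-fold higher and the median was 1.04. The 20 housekeeping genes had a median of 0.47, with 16 (80%) higher and 7 (35%) at least 2-fold higher. Sdha (1.54), Pgk1 (1.26) and Gusb (1.22) led them. The cap's median of 0.78 thus lay between those of eIF3 and CCT, and that of the immunoproteasome subunits (-0.21) below all of them.

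**Figure D5:**
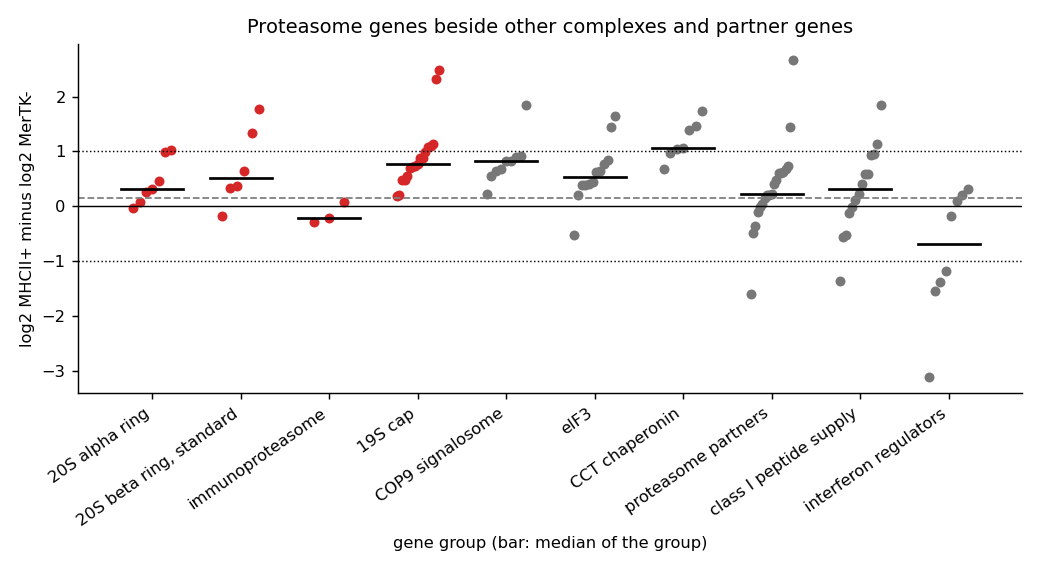
Difference of log2 values, MHCII+ minus MerTK- (vertical axis), for genes above the floor, 1 point per gene in order of value, with proteasome groups in red and other groups in grey; black bars are group medians, dotted lines mark 2-fold and the dashed line is the median of all genes above the floor. Medians run from -0.68 for interferon regulators to 1.07 for CCT, with the immunoproteasome subunits at -0.21 and the cap at 0.78.

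Proteins that work with the proteasome were mixed. Of the partner genes 19 passed the floor. Of these, 2 (10.5%, against 13.4% of all genes) had a value at least 2-fold higher in MHCII+ macrophages. A value at least 2-fold lower was held by 1 (5.26%, against 6.88%), and the median was 0.22. Both shares are near the background. Usp14, a ubiquitin-removing enzyme that binds the cap, had 8.72 in MHCII+ and 6.05 in MerTK- macrophages, 6.37-fold apart. Rad23b, which carries tagged proteins to the cap, had 10.85 in MHCII+ and 9.41 in MerTK- macrophages, 2.72-fold apart. Ublcp1, a nuclear phosphatase that acts on the proteasome, had 9.18 in MHCII+ and 10.77 in MerTK- macrophages, 3.03-fold lower in MHCII+. Pomp, the chaperone that builds the beta ring, had 12.10 in MHCII+ and 11.89 in MerTK- macrophages (0.21). Nfe2l1, the transcription factor that raises proteasome genes when the proteasome is short, had 11.75 in MHCII+ and 11.14 in MerTK- macrophages (0.61). Of 4 measured genes of the ubiquitin supply, 1 was at least 2-fold higher (25%, against 13.4% of all genes). This was Vcp, the segregase that pulls tagged proteins out of complexes and membranes, with 11.28 in MHCII+ and 9.75 in MerTK- macrophages. Its cofactors Ufd1 (0.37) and Nploc4 (0.10) were not.

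Downstream, 14 genes of peptide supply to MHC class I had a median of 0.32, with 2 at least 2-fold higher (14.3%, against 13.4% of all genes) and 1 at least 2-fold lower (7.14%, against 6.88%) in MHCII+ macrophages. These shares are near the background. Calr had 17.63 in MHCII+ and 15.78 in MerTK- macrophages. Canx had 13.52 in MHCII+ and 12.38 in MerTK- macrophages. Both encode chaperones of the endoplasmic reticulum that help class I fold. Npepps, an aminopeptidase that trims peptides in the cytosol, had 6.77 in MHCII+ and 8.13 in MerTK- macrophages, 2.56-fold lower in MHCII+. Upstream, the regulators of interferon-gamma response were lower or near level in MHCII+ macrophages. Of 8 measured, 4 (50%, against 6.88% of all genes) were at least 2-fold lower. At least 2-fold higher were 0 (against 13.4% of all genes), and the median was -0.68. Irf1, a factor that switches on the inducible subunits, had 14.09 in MHCII+ and 15.48 in MerTK- macrophages, 2.62-fold lower in MHCII+. The kinases of the interferon-gamma receptor were also lower. Jak1 had 10.30 in MHCII+ and 11.48 in MerTK- macrophages. Jak2 had 12.62 in MHCII+ and 14.17 in MerTK- macrophages. Ifng itself, a product of lymphocytes, had 4.52 in MHCII+ and 7.65 in MerTK- macrophages. List medians shift with the centring like single genes, so those of the partners, the ubiquitin supply and the class I supply fall below 0 with housekeeping centring, and that of the interferon regulators lies above 0 with hybridization controls.

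The arrays also differed in genes of other cells. All 9 neutrophil markers above the floor were lower in MHCII+ macrophages, with a median of -1.75. Taken against the floor where a value lay below it, 8 of the 9 were at least 2-fold lower, Ltf being 1.92-fold lower. Over all genes above the floor, counted in that way, 6.00% were at least 2-fold lower and 11.8% at least 2-fold higher. All 7 natural killer markers above the floor were lower as well as those of neutrophils, most of them with an MHCII+ value that was itself under the floor. With such values set to the floor, 6 of the 7 were at least 2-fold lower, and the median was -1.63. Mean log2 values of the neutrophil list were 13.7 in MHCII+ and 15.5 in MerTK- macrophages, and those of the natural killer list 4.07 in MHCII+ and 6.98 in MerTK- macrophages. Gzma, a killer cell granzyme, had 5.20 in MHCII+ and 13.04 in MerTK- macrophages. Of 9 dendritic cell markers 5 were above the floor. At least 2-fold higher in MHCII+ macrophages, also against the floor, were 4 of them, Cd209a, Ccl17, Ccl22 and Itgax. Ccr7 lay within 2-fold (0.23). Flt3, Zbtb46, Xcr1 and Clec9a did not pass the floor. The B cell markers Cd79b and Ms4a1 were higher, though under 2-fold against the floor. Of 5 T cell markers with a value 2 were above the floor, Cd3d (-0.31) and Cd4 (0.37), and neither was 2-fold apart. Of 6 cardiomyocyte markers 5 were above the floor and all 5 were lower in MHCII+ macrophages, with a median of -1.14. All 5 endothelial markers were lower too, with a median of -0.63 that turned positive when centred on hybridization controls, and Fabp4 was 3.70-fold and Cdh5 2.08-fold lower. Both fibroblast markers above the floor were lower, Dcn by 3.37-fold. The listed markers that did not pass the floor, among them Camp, Eomes, Ryr2, Col3a1 and Tcf21, were left out of these counts and medians. The 6 macrophage markers with a value were above the floor on both arrays. All 6 were higher in MHCII+ macrophages (background 58.4%), with a median of 0.71, close to the 0.69 of the proteasome genes. At least 2-fold higher was 1 of them (16.7%, background 13.4%), Mertk, with 8.77 in MHCII+ and 5.97 in MerTK- macrophages. The part of these cells in the differences above was not tested.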

How the data were processed

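Total RNA of MHCII+ and MerTK- macrophages, isolated with TRIzol, was hybridized to 2 mouse Clariom S arrays, 1 per population. An older mouse array is named in the series description, while probe set names and the platform table are those of Clariom S. The authors deposited log2 values made by RMA under default settings with global scaling. Affymetrix Expression Console is the tool named in the submitters' processing notes, without a version. The values spanned 1.01 to 19.8 for MHCII+ and 0.89 to 19.4 for MerTK- macrophages. Of these, 337 and 331 probe sets exceeded 16, the log2 limit of a 16-bit scan. Whether the scale was only shifted, which keeps folds, or also stretched, which widens them, is not known, and folds are those of the deposited values.

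Of 28846 probe sets, 22206 stand for transcripts and 19572 carry 1 gene symbol. Symbols were updated by Entrez ID through the NCBI table of GRCm38.p6, and the brighter probe set was kept, which left 19505 genes. Genes without a named probe set (Psmb5, Adrm1 and Nlrc5 among those sought) have no value. With 1 array per population no test, SD or p-value was possible. Differences were counted at 2-fold among genes above the floor, and medians and counts of the proteasome genes were set beside those of all genes. The proteasome genes are all named. From the lists of other genes, the text takes the 3 with the largest differences, any 2-fold apart in the lists of partners, ubiquitin supply, class I peptide supply and interferon regulators, and Pomp, Nfe2l1, Tap1, Tap2 and Irf1. Genes and lists were chosen with earlier results of these data known. Promoters are from RefSeq, of which 200 bases before the start were searched. Alternatives were other centrings, quantile normalization, other floors and thresholds, averaged probe sets and a compressed scale. The code that counts genes past 2-fold was tested on simulated data without noise, in which genes well above the floor were moved past the threshold. That checks the code and says nothing of the calls on these arrays. Python 3.11.15 with numpy 2.4.6, pandas 2.3.3 and matplotlib 3.10.9 was used.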

Additional observations from a re-analysis of the deposited data

How the results depend on the processing

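No paired analysis was possible because each population had 1 array, and for the same reason no array could be left out. The proteasome genes' median difference of 0.69 became 0.54 when centred on all genes above the floor, 0.21 on housekeeping genes and 1.62 on hybridization controls. Quantile normalization gave 0.56, a mean of at least 10 gave 0.46, and values multiplied by 0.5, a setting applied to counts and medians after seeing the data, gave 0.34. At least 2-fold higher in MHCII+ macrophages were 4 genes with housekeeping centring (4.98% of all genes), 41 with hybridization controls (54.9% of all genes), 7 at a mean of at least 10 (11.4%) and 2 on the compressed scale (1.63%). At a 1.5-fold threshold the number was 25 (27.5% of all genes). Housekeeping centring put 1 gene at least 2-fold lower, and 18.4% of all genes. Compression changed the pair differences to -1.03 for Psmb9 over Psmb6 and -0.78 for Psmb10 over Psmb7. Other settings left counts within 1.5 times and differences within 0.1 of the values given, with 8 genes at least 2-fold higher under median centring (9.92% of all genes) and 9 under quantile normalization (10.5%). Under the centrings, 28 to 47 of 47 genes were higher in MHCII+ macrophages, and 32.7% to 92.2% of all genes. The planned pair of Psmb8 and Psmb5 gave no value, since Psmb5 has no named probe set here. Over the other results, nearly all of them differences of single genes, 147 alternatives moved the value by under 0.1, 221 moved it further, and 0 turned the sign of a difference of 2-fold or more. These counts follow largely from the settings and do not measure stability. Each centring shifts every gene by 1 constant, and averaging cannot move a gene with 1 probe set. A downward shift of 0.47 or a factor of 0.5 cannot turn the sign of a 2-fold higher value. Signal over background limits the weakest genes, and 3 proteasome genes were under the floor.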
